A study of Mus musculus with 15 samples.

Results

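Immediate early genes are transcribed within minutes of a stimulus without new protein synthesis, and heat shock genes answer to unfolded protein. The set described here holds 10 such genes out of the 23154 genes listed in the deposited tables. They are Fos, Fosb, Jun, Junb, Egr1, Ier2, Atf3, Dusp1, Hspa1a and Hspa1b, and each was found by its symbol in the table of every library. The 15 libraries are single-cell RNA libraries of mouse embryonic heart, and the question put to them was whether RNA of these genes, which cell handling can induce, differed between libraries of 1 group and between groups.

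All mice carried the Rosa26tdTomato reporter, in which Cre recombinase switches on a red fluorescent protein, together with either Isl1Cre or Nkx2-5Cre. Isl1Cre is Cre driven from the locus of Isl1, a gene of second heart field progenitors, and Nkx2-5Cre is Cre driven from the locus of the cardiac factor Nkx2-5. The Isl1Cre::Rosa26tdTomato hearts gave 2 libraries at each of E7.75, E8.25 and E8.75 and 1 library at E9.25, and the Nkx2-5Cre::Rosa26tdTomato hearts gave 2 libraries at each of these 4 stages. Both libraries of a group carry the same embryo number in their titles, so the spread between them may be technical and 1 embryo cannot be told apart from its lineage or stage. Cells were freed by flow sorting or by trypsin alone and then picked by mouth pipette. The labels do not tie either treatment to a library, so handling itself was not tested.

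The 1332 cells that were kept, of 1400, numbered 61 to 94 per library, with library totals of 8165519 to 38321215 counts and a median of 121298.5 counts and 5873.5 genes per cell. No cell name occurred in more than 1 library. Cells were clustered without the rows of the 10 genes. By their markers 751 cells were cardiomyocyte-like, 116 endothelial-like and 40 endoderm-like, and 69 shallow cells (median 4082 counts) stayed unnamed. Progenitor markers were raised in 3 further clusters, which are called by number. Cluster 5 (136 cells), led by Aldh1a2 and Pdgfra, held most Isl1Cre cells of E7.75. Cluster 3 (166 cells), led by Apoa1, Rbp4 and Ttr, genes of endoderm, held most Nkx2-5Cre cells of E7.75, and cluster 10 (54 cells) held Isl1Cre cells of E8.25. RNA of the embryonic globin Hba-x stood apart in 3 libraries. It was found in 79.1% of cells of the Isl1Cre E9.25 library and in 98.9% and 67.0% of cells of the Nkx2-5Cre E8.75 libraries. Elsewhere Hba-x was in at most 1.1% of cells. Hbb-y was less confined: it was in 33.0% of cells of the Isl1Cre E9.25 library (5.56 CPM). The Nkx2-5Cre E9.25 libraries had it in 13.2% and 23.7% of cells (6.17 and 21.2 CPM). The summed level of the 7 erythroid markers was 222 CPM in the Isl1Cre E9.25 library and 1407 and 1176 CPM in those of Nkx2-5Cre E8.75. It was at most 21.5 CPM elsewhere, and its part in the results was not tested.

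Fos, Fosb, Jun and Junb encode subunits of AP-1, a dimeric transcription factor that forms when mitogen-activated protein (MAP) kinases signal. Egr1 encodes a zinc finger transcription factor of the same first wave, Ier2 a small nuclear protein, and Atf3 a leucine zipper factor of the stress response. Dusp1 encodes a phosphatase that switches MAP kinases off again, and Hspa1a and Hspa1b encode the inducible HSP70 chaperones that HSF1 drives on heat. Fos and Jun RNA are also known to appear during enzymatic dissociation of tissues.

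Promoter windows of 250 bases before the RefSeq transcription start (GRCm38.p6, the mm10 assembly) were found for 8 of the 10 genes; Ier2 and Egr1 are named only. Those of Fos and Dusp1 are shown because these genes changed with lineage or stage, and capitals mark TGACG or its reverse complement CGTCA, the core of the cyclic AMP response element TGACGTCA.
Fos, chr12:85473640-85473889, plus strand: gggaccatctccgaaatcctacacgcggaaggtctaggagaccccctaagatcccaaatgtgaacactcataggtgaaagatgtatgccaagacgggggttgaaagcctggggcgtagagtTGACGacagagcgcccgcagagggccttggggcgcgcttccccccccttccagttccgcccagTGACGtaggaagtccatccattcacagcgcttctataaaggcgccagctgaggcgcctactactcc
Dusp1, chr17:26508473-26508722, minus strand: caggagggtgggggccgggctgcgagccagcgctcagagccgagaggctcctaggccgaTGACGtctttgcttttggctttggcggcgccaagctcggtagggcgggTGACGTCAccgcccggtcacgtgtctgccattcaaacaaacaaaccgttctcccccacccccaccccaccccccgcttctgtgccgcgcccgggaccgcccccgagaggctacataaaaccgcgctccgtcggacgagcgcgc
The Fos window held TGACG starting at bases -129 and -66, counted back from the base before the start as -1. The Dusp1 window held it at -191 and -143, the second within a complete TGACGTCA, which contains both cores in overlap. A TGACG core, on either strand, lay in 5 of the 8 windows (Atf3, Dusp1, Fos, Fosb and Junb), against 17.8% of 32851 promoter windows of the same length. The whole TGACGTCA lay in 1 of 8, against 1.55%. None of the 8 windows held TGANTCA, the letters of an AP-1 site (6.75% of all windows), or a CArG box, the letters bound by SRF (1.47%). Bases beyond these 250 were not searched, and Ier2 and Egr1 had no window, so sites of these genes elsewhere are not covered. The sites given are matches of letters in windows and not measured binding.

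The promoters of Hspa1a and Hspa1b are shown because the pair is near-identical, and capitals mark GAANNTTC, a core of the heat shock element, which reads the same on both strands.
Hspa1a, chr17:34972157-34972406, minus strand: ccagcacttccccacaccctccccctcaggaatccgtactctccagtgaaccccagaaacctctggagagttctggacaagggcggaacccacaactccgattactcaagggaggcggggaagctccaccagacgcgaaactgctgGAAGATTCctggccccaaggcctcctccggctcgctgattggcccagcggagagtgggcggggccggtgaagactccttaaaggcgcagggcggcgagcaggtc
Hspa1b, chr17:34959239-34959488, minus strand: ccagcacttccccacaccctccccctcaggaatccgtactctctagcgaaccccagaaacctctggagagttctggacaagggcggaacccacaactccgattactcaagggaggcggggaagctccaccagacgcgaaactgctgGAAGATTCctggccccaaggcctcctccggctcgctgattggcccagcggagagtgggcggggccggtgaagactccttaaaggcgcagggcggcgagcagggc
The 2 windows had 247 of 250 bases in common (98.8%), and each held the core once, at base -104. Among all windows 6.69% held it, as did 3 of the 8 windows of the set, the third being Jun.

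All values that follow are means, over a library's kept cells, of CPM, each count scaled to the total of its cell, which the authors' tables give per cell and which carry no scaling by gene length. Fos had 113 and 114 CPM in the Isl1Cre E7.75 libraries, 61.5 and 52.8 at E8.25, 115 and 125 at E8.75, and 82.3 at E9.25. In Nkx2-5Cre libraries Fos had 129.5 and 74.2 CPM at E7.75, 148 and 169.9 at E8.25, 69.2 and 88.9 at E8.75, and 60.2 and 97.1 at E9.25. The E8.25 libraries of Isl1Cre were among the 3 lowest of the series and those of Nkx2-5Cre were the highest, and the lineages also did not overlap at E8.75, where Isl1Cre was higher. How many of all genes separate the lineages in this way was not counted, for Fos or for the genes below. A Fos count was present in 74.5% to 95.7% of the cells of a library.

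Fosb was the less widely detected Fos relative, with a count in 23.1% to 79.1% of cells. Its level was 7.94 and 15.4 CPM in Isl1Cre libraries at E7.75, 9.73 and 15.1 at E8.25, 23.3 and 32.4 at E8.75, and 13.1 at E9.25. In Nkx2-5Cre libraries it was 21.5 and 8.29 CPM at E7.75, 6.53 and 12.2 at E8.25, 6.95 and 17.2 at E8.75, and 5.11 and 16.9 at E9.25. Libraries of 1 group differed as much as groups did, except at E8.75, where both Isl1Cre libraries were above both Nkx2-5Cre libraries. The highest value, 32.4 CPM, owed 73.8% to 5 cells.

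Jun had 82.3 and 48.2 CPM in Isl1Cre libraries at E7.75, 36.4 and 43.2 at E8.25, 51.4 and 41.8 at E8.75, and 79.8 at E9.25. In Nkx2-5Cre libraries Jun had 48.3 and 45.9 CPM at E7.75, 39.96 and 123 at E8.25, 49.3 and 61.4 at E8.75, and 70.3 and 113 at E9.25. The lineages overlapped at all 4 stages, and 1 of the Nkx2-5Cre E8.25 libraries was the highest while its partner was among the lowest. Junb, whose product can restrain Jun in AP-1 dimers, ranged over 4.84 to 22.1 CPM in Isl1Cre and 11.9 to 18.9 CPM in Nkx2-5Cre libraries. Its lowest values, 4.84, 9.74 and 9.65 CPM, came from the Isl1Cre libraries of E8.75 and E9.25.

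Egr1 varied the most among the 8 genes with enough RNA to test. It had 22.7 and 9.73 CPM in Isl1Cre libraries at E7.75, 31.3 and 25.3 at E8.25, 5.07 and 14.1 at E8.75, and 20.4 at E9.25. In Nkx2-5Cre libraries it had 23.2 and 26.3 CPM at E7.75, 18.2 and 7.71 at E8.25, 8.253 and 44.2 at E8.75, and 15.2 and 13.7 at E9.25. Its lowest and highest libraries differed 8.72-fold. The share of cells with an Egr1 count, 17.6% to 87.9%, depends on depth. The Nkx2-5Cre E8.75 shares were 34.0% and 67.0%. With each cell thinned to 5000 counts they were 6.52% (95% exact interval 2.43% to 13.7%) and 11.8% (5.79% to 20.6%). These intervals overlap, and the difference in shares was not tested. The gap in mean Egr1 level between the 2 libraries was still at least 1 on the log2 scale in thinned cells.

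Ier2 had the smallest difference between its highest and lowest libraries, 2.96-fold, and a count in 76.5% to 98.9% of cells. It had 113 and 94.7 CPM in Isl1Cre libraries at E7.75, 126 and 147 at E8.25, 85.3 and 82.5 at E8.75, and 60.2 at E9.25. In Nkx2-5Cre libraries it had 178 and 163 CPM at E7.75, 141 and 118 at E8.25, 94.1 and 133 at E8.75, and 141 and 134 at E9.25. Nkx2-5Cre was higher without overlap at E7.75, E8.75 and E9.25, the last with 1 Isl1Cre library, and the lineages overlapped at E8.25. The share of all genes without overlap was not counted, and Ier2 at E8.75 was not called (limma adjusted p = 0.389). Atf3 had 8.99 to 21.0 CPM in Isl1Cre and 13.7 to 37.2 CPM in Nkx2-5Cre libraries, with the highest values in 1 library each of Nkx2-5Cre E8.75 and E9.25.

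Dusp1 fell with stage in both lineages. It had 53.3 and 39.6 CPM in Isl1Cre libraries at E7.75, 24.4 and 21.8 at E8.25, 24.995 and 47.0 at E8.75, and 16.6 at E9.25. In Nkx2-5Cre libraries it had 66.2 and 40.7 CPM at E7.75, 53.05 and 39.6 at E8.25, 22.3 and 26.3 at E8.75, and 27.0 and 32.3 at E9.25. In Nkx2-5Cre the E7.75 and E8.25 libraries were all above the later ones, whereas in Isl1Cre 1 library of E8.75 lay among those of E7.75.

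The inducible HSP70 genes were close to the limit of detection. Hspa1a had 0.124 to 3.59 CPM in Isl1Cre and 0.424 to 8.998 CPM in Nkx2-5Cre libraries, from 411 counts in all, and was found in 1.11% to 17.2% of the cells of a library. Hspa1b had 156 counts in all and was listed at 0 in 5 libraries: Isl1Cre E7.75 replicate 1, Isl1Cre E8.75 replicate 2, Isl1Cre E9.25, Nkx2-5Cre E8.25 replicate 1 and Nkx2-5Cre E8.75 replicate 1. In a library's pooled counts a count of 0 allows up to 0.234, 0.264, 0.233, 0.141 and 0.201 CPM there, for counting error only, which is no bound on a mean over cells, where 1 shallow cell can weigh more. The highest Hspa1b value, 6.95 CPM in Isl1Cre E8.75 replicate 1, came from 6 counts in 5 cells, 1 of which stood at 386 CPM. Of the 100-base windows of the Hspa1a and Hspa1b transcripts, 47.1% and 49.9% occur in the other transcript, but none in the last 400 bases, the end that 3′ capture reads. Neither gene reached the 5 CPM in 2 libraries needed for a test of library means over all cells, so 8 of the 10 genes were tested.

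Summed over the 10 genes, the level per cell averaged 387 ± 51.9 CPM in Isl1Cre hearts of E7.75, 335 ± 13.9 CPM in those of E8.25 and 347 ± 23.5 CPM in those of E8.75 (SD, n = 2 libraries each), and 305 CPM in the single E9.25 library. In Nkx2-5Cre hearts it averaged 450.3 ± 74.1 CPM in the E7.75 pair, 475 ± 53.3 CPM in the E8.25 pair, 355 ± 80.6 CPM in the E8.75 pair and 410.5 ± 83.6 CPM in the E9.25 pair (SD, n = 2 each). The lineages overlapped at E7.75 and E8.75, and Nkx2-5Cre lay higher at E8.25 and E9.25. No p is given for the sum, since its genes were chosen. The higher library of a group exceeded the lower by 1.06-fold to 1.38-fold, and the highest library of all exceeded the lowest by 1.72-fold. This last ratio was 2.24-fold with cells thinned to 5000 counts and 1.85-fold without the 5% of cells with the highest sum. Fos, Jun and Ier2 made up 68.6% to 80.2% of the sum.

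Median cell sums were 228 to 447 CPM, and the highest cell reached 2557 CPM. The shallowest kept cell had 2058 counts, so single-cell sums carry a large counting error. Cells with at least 1000 CPM were 1.06% to 12.9% of a library. The largest share was 12 of 93 cells, in Nkx2-5Cre E9.25 replicate 2.

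The spread between libraries of 1 group was set against that of genes of like level. After removing group means, Egr1 had a standard deviation of 0.85 on the log2(CPM + 1) scale, against a median of 0.36 for genes of like level, which put it at their percentile 99.4. Jun had 0.52 against 0.23 (percentile 98.6) and Fosb 0.72 against 0.39 (percentile 97.3). Fos, Atf3, Dusp1 and Ier2 stood at percentiles 84.3, 74.8, 73.3 and 55, and Junb at 30.1.

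Among 56 pairs of a tested gene and a group with 2 libraries, 9 had a gap of at least 1 on the log2 scale, or 16.1%, against 9.06% over all genes tested. Egr1 gave 4 of them (Isl1Cre E7.75 and E8.75, Nkx2-5Cre E8.25 and E8.75), Fosb 3 (Nkx2-5Cre E7.75, E8.75 and E9.25), Jun 1 (Nkx2-5Cre E8.25) and Atf3 1 (Nkx2-5Cre E9.25). Thinned to 5000 counts a cell, 16 pairs passed, or 28.6%, against 24.97% of all gene and group pairs, a share near the background. There Junb passed in 3 pairs and Dusp1 in 2, and Fosb in Nkx2-5Cre E7.75 did not. Several gaps were present inside 1 cell class. In cardiomyocyte-like cells of Nkx2-5Cre E8.25, Jun had 41.0 and 129 CPM and Egr1 15.7 and 5.08 CPM in replicates 1 and 2. In those of Nkx2-5Cre E8.75, Egr1 had 8.56 and 43.3 CPM and Fosb 7.47 and 19.0 CPM. The high Fosb of Isl1Cre E8.75 replicate 2 was shared unequally between classes: its cardiomyocyte-like cells had 19.2 CPM and its 11 unnamed shallow cells 130 CPM.

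Averaged over stages, Ier2 RNA was lower in Isl1Cre hearts than in Nkx2-5Cre hearts, by -0.53 ± 0.10 on the log2 scale (SE; limma, Benjamini-Hochberg adjusted p = 0.00334). It was the single call among the 8 tested genes, while 7.34% of all 10665 genes were called in either direction. Atf3 (-0.52 ± 0.21, adjusted p = 0.144), Junb (-0.38 ± 0.20, adjusted p = 0.29), Dusp1 (-0.34 ± 0.16, adjusted p = 0.251) and Fosb (0.48 ± 0.29, adjusted p = 0.379) did not pass in limma. Fos, Jun and Egr1 differed by -0.11 ± 0.13, -0.17 ± 0.20 and -0.01 ± 0.32. The median of the 8 genes was -0.26, against -0.01 over all genes. Without the single Isl1Cre E9.25 library the Ier2 call was lost, at -0.34, and so it was without the E7.75 libraries, at -0.49.

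Stage by stage, Fos carried the largest lineage difference. At E8.25 it was lower in Isl1Cre by -1.49 ± 0.24 (log2 ± SE, limma adjusted p = 0.00152), 1 call of 8 against 5.09% of all genes. Dusp1 there was -0.99 ± 0.31 in limma (adjusted p = 0.0753) and was called by edgeR (-1.29, adjusted p = 0.0179) and DESeq2 (-1.30, adjusted p = 0.00109). Egr1 was 1.15 ± 0.60 (limma adjusted p = 0.336). At E7.75 Ier2 was lower in Isl1Cre, by -0.67 ± 0.19 (limma adjusted p = 0.0395), against 7.13% of genes called. At E9.25 it was lower by -1.10 ± 0.23 (limma adjusted p = 0.0268), against 0.975% called, with 1 Isl1Cre library. Both Ier2 calls were lost with edgeR on the recovered counts (0 called at either stage, with 0 genes at E7.75 and 1 at E9.25 at an unadjusted p under 0.05). The E7.75 call was also lost without any 1 of the 4 E7.75 libraries (-0.80 to -0.53) or either Nkx2-5Cre E9.25 library (-0.67), and the E9.25 call without either Nkx2-5Cre E9.25 library (-1.05 and -1.13).

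At E8.75 limma called 0 of the 8 genes, where 0.319% of all genes were called. There 5 genes had an unadjusted p under 0.05: Fos (0.61 ± 0.24) and Fosb (1.24 ± 0.55) with higher values in Isl1Cre, and Junb (-1.04 ± 0.38), Ier2 (-0.41 ± 0.19) and Atf3 (-1.20 ± 0.39) with lower ones. With edgeR and DESeq2 0 were called, and 2 had an unadjusted p under 0.05. The share of all genes at an unadjusted p under 0.05 was not counted, in this fit or any other, so these counts have no background. The test of whether the lineage difference depended on stage passed for Fos alone (limma adjusted p = 0.00356), 1 of 8 against 4.9% of all genes. The 2 later stages gave Fos differences of 0.61 ± 0.24 and 0.18 ± 0.29, and E7.75 gave 0.26 ± 0.24.

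**Figure D1:**
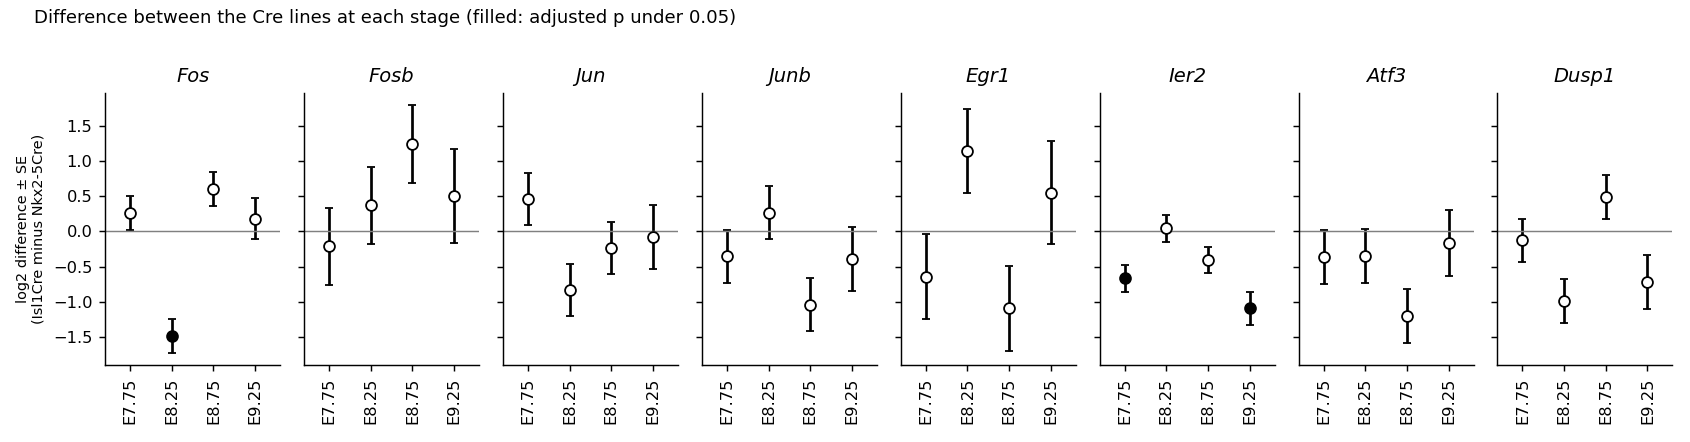
Isl1Cre minus Nkx2-5Cre difference on the log2(CPM + 1) scale for each tested gene at each stage, with standard errors from limma; filled points have an adjusted p under 0.05. Fos at E8.25 (-1.49) and Ier2 at E7.75 (-0.67) and E9.25 (-1.10) are filled.

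Cell makeup moved with these differences. At E8.25 the cardiomyocyte-like cells were 48 of 93 and 49 of 93 in Isl1Cre and 77 of 94 and 72 of 93 in Nkx2-5Cre libraries. Fos in those cells was 91.1 and 71.6 CPM in Isl1Cre, against 165 and 209 CPM in Nkx2-5Cre, and the groups did not overlap inside the class either. How many of all genes separate the lineages in this way in cardiomyocyte-like cells of E8.25 was not counted. Cluster 9, led by Tdgf1 and Abra, held most of these cells in Isl1Cre, with 25 and 29, and clusters 1, 2 and 6 most of them in Nkx2-5Cre. In cluster 10 of the Isl1Cre E8.25 libraries Fos was 36.3 and 33.3 CPM.

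At E7.75 Ier2 was 98.4 and 81.4 CPM in cluster 5 of Isl1Cre and 168 and 152 CPM in cluster 3 of Nkx2-5Cre. Lineage and cluster cannot be told apart there. In cardiomyocyte-like cells at E9.25 it was 61.4 CPM in Isl1Cre, against 129 and 120 CPM in Nkx2-5Cre. Endothelial-like cells there were 2 of 91 in Isl1Cre, against 14 of 91 and 18 of 93 in Nkx2-5Cre. Cardiomyocyte-like cells alone, in 5 Isl1Cre and 6 Nkx2-5Cre libraries of E8.25 to E9.25, gave 0 calls with limma among 9 genes of the set, where 1.03% of 10195 genes were called. That fit gave 1 lineage difference across these stages, so a difference at a single stage, such as Fos at E8.25, was not tested inside the class. Fos differed across stages by -0.18 ± 0.23 (limma adjusted p = 0.81). Hspa1a, which passed the filter in these cells, differed by -0.26 ± 0.45 (limma adjusted p = 0.87). Ier2 differed there by -0.27 ± 0.17 (adjusted p = 0.557), and Fosb, the 1 gene with an unadjusted p under 0.05, by 0.82 ± 0.32 (adjusted p = 0.269). No other tool was run on these cells. The part of cell makeup in the lineage differences was not tested beyond these values.

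With stage, Dusp1 fell in both lineages: by -0.71 ± 0.24 per day in Isl1Cre (log2 ± SE, limma adjusted p = 0.0354) and by -0.65 ± 0.20 per day in Nkx2-5Cre (adjusted p = 0.0209). Ier2 fell in Isl1Cre, by -0.57 ± 0.14 per day (limma adjusted p = 0.00704), and its slope in Nkx2-5Cre was -0.23 ± 0.12 (adjusted p = 0.181). Ier2 in Isl1Cre did not fall steadily: its group mean was 104 CPM at E7.75, 136 CPM at E8.25, 83.9 CPM at E8.75 and 60.2 CPM at E9.25. The difference between the Ier2 slopes of the lineages was not tested. Fos had a slope of -0.41 ± 0.15 in Nkx2-5Cre (limma adjusted p = 0.0551). These are 2 of 8 genes in Isl1Cre and 1 of 8 in Nkx2-5Cre, against 23.2% and 24.8% of all genes. Over any difference among the 8 groups, limma called Fos (adjusted p = 0.00202), Ier2 (adjusted p = 0.00139) and Dusp1 (adjusted p = 0.00982), 3 of 8 or 37.5%, against 38% of all genes. Without the Isl1Cre E9.25 library both Isl1Cre calls were lost (Dusp1 -0.45, Ier2 -0.34 per day). The Dusp1 calls were also lost without Isl1Cre E7.75 replicate 1 (-0.59) or E8.25 replicate 1 (-0.70) in Isl1Cre, and without Nkx2-5Cre E7.75 replicate 1 (-0.49) or E9.25 replicate 1 (-0.59) in Nkx2-5Cre. Cell makeup moved with stage as well. The 13 cardiomyocyte markers summed to 7397 and 8443 CPM in the Isl1Cre and 17064 and 15609 CPM in the Nkx2-5Cre libraries of E7.75, against 26700 to 57692 CPM later, and their part was not tested. Cells of E7.75 fell in no cardiomyocyte-like cluster at resolution 1.0, but at resolution 1.5 such a cluster held 33 and 31 cells of the Nkx2-5Cre E7.75 libraries. In library means fewer cells of a type and less RNA per cell cannot be told apart.

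Endothelial-like cells, of the lining of the heart tube, carried more Junb than cardiomyocyte-like cells of the same libraries. In the 3 libraries with at least 10 of them, all Nkx2-5Cre (E8.25 replicate 2 and both of E9.25), Junb averaged 39.5 ± 14.8 CPM in endothelial-like and 9.72 ± 3.64 CPM in cardiomyocyte-like cells (SD, n = 3). Ier2 averaged 219 ± 42.8 against 119 ± 10.4 CPM, Jun 137 ± 19.96 against 100.1 ± 39.1 CPM and Dusp1 55.4 ± 13.9 against 29.1 ± 8.02 CPM. All 4 were higher in 3 of 3 libraries, as were 24.4% of all genes tested. Fos was lower in 3 of 3, at 52.3 ± 25.5 against 125 ± 74.5 CPM, as were 25.8% of genes.

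With at least 5 endothelial-like cells, 8 libraries could be compared, 3 Isl1Cre and 5 Nkx2-5Cre, with 78 endothelial-like and 538 cardiomyocyte-like cells. Junb (38.9 ± 20.02 against 10.4 ± 4.69 CPM), Jun and Ier2 were higher in 8 of 8, against 9.1% of all genes. Jun averaged 99.4 ± 35.3 against 64.8 ± 36.4 CPM and Ier2 179.5 ± 55.6 against 111 ± 25.6 CPM. The narrowest Jun gap was 120 against 116 CPM, in Nkx2-5Cre E9.25 replicate 2. The narrowest Ier2 gap was 90.4 against 79.1 CPM, in Isl1Cre E8.75 replicate 1. Fos was lower in 8 of 8 (40.1 ± 26.7 against 123 ± 49.3 CPM), against 13% of all genes. Atf3 and Dusp1 were higher in 7 of 8, where 17.5% of all genes were higher in at least 7, and Egr1 was higher in 5 of 8 and Fosb in 2 of 8. The limit of 5 cells was chosen after the values were seen. These values are a description with no test.

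Across the cells of a library the tested genes went together weakly. The 28 pairs had a median Spearman correlation of 0.158 over the 15 libraries, with a range over pairs of 0.0528 to 0.373. With cells thinned to 5000 counts the median was 0.0375, and the points share each library's range of depth, so this is a description only. At full depth Fos and Fosb had the highest value, 0.373, above 0 in 15 of 15 libraries, followed by Fos and Egr1 (0.233) and Jun and Atf3 (0.230). This order was not kept in thinned cells. There Fos and Fosb had 0.0361, above 0 in 8 of 15 libraries, Fos and Egr1 0.0368 and Jun and Atf3 0.0454. The highest thinned pair was Ier2 and Atf3 (0.112). The genes whose RNA followed the summed log2 level of the set most closely, among 3777 with at least 20 CPM in every library, were Cyr61 (0.349), Ppp1r15a (0.298), Klf6 (0.278), Dera (0.275) and March6 (0.269), against a median of 0.108. After thinning, Cyr61, Ppp1r15a and Klf6 ranked 2, 4 and 20, whereas Dera and March6 ranked 966 and 2109.

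Genes around these pathways were counted from 7 lists, chosen with earlier results of these data known, by the same limma fit and its threshold of adjusted p under 0.05. Of 41 other immediate early genes 30 were tested. Between the lineages averaged over stages 0 were higher and 1 lower in Isl1Cre (3.33%, against 7.34% of all genes): Ier3, a survival factor (-0.98 ± 0.25, adjusted p = 0.0194). Their median difference was -0.27 and 8 of the 30 had a positive sign, against a median of -0.01 over all genes. With stage 2 rose and 3 fell in Isl1Cre (16.7%, against 23.2%), and 5 rose and 1 fell in Nkx2-5Cre (20%, against 24.8%). Gadd45g, of the DNA damage response, fell in Isl1Cre (-0.66 ± 0.16 per day) and rose in Nkx2-5Cre (0.49 ± 0.14 per day). Any group difference was called for 36.7% of the list, against 38% of all genes.

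Among feedback genes of the MAP kinase cascade beside Dusp1, 12 of 13 phosphatase and Sprouty-type genes were tested and 1 was called (8.33%, against 7.34% of all genes): Spry2, an inhibitor of receptor signalling, was higher in Isl1Cre (0.62 ± 0.13, limma adjusted p = 0.0081). The list's median difference was 0.01. With stage 1 rose and 1 fell in Isl1Cre (16.7%, against 23.2% of all genes), and 2 rose and 2 fell in Nkx2-5Cre (33.3%, against 24.8%). Of 17 kinases and transcription factors upstream, all tested, 1 was called (5.88%): Map2k1, the MAP kinase kinase MEK1, was lower in Isl1Cre (-0.30 ± 0.09, limma adjusted p = 0.0406). With stage 1 rose and 1 fell in Isl1Cre (11.8%), and 0 rose and 5 fell in Nkx2-5Cre (29.4%), among them Srf, the factor that binds the CArG box (-0.91 ± 0.14 per day), and Mapk3, the kinase ERK1 (-0.95 ± 0.19 per day). Any group difference was called for 41.7% of the feedback genes and 29.4% of the upstream genes, against 38% of all genes.

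Of 32 heat shock chaperone genes other than the HSP70 pair 30 were tested, and limma called a difference among groups for 70%, against 38% of all genes. Averaged over stages 6 were called (20%, against 7.34% of all genes), of which 3 were higher in Isl1Cre, Hsp90aa1 (0.36 ± 0.07), Hspa8 (0.26 ± 0.05) and the collagen chaperone Serpinh1 (0.27 ± 0.08). The 3 that were lower are small heat shock proteins of muscle and other tissues: Hspb1 (-0.74 ± 0.09, limma adjusted p = 3.9e-05), Hspb7 (-0.70 ± 0.15) and Cryab (-0.42 ± 0.10). With stage these 3 rose in both lineages, Hspb1 by 3.17 ± 0.12 per day in Isl1Cre and by 2.51 ± 0.10 per day in Nkx2-5Cre. Dnajb1, an HSP40 gene induced by heat, fell in both, by -1.05 ± 0.20 per day in Isl1Cre and -0.71 ± 0.16 in Nkx2-5Cre, as did Hsph1, by -0.70 ± 0.17 and -0.83 ± 0.14. In all, 7 rose and 7 fell in Isl1Cre (46.7%, against 23.2% of all genes), and 9 rose and 7 fell in Nkx2-5Cre (53.3%, against 24.8%). The share of cardiomyocyte-like cells also differed between stages and lineages, and its part in the levels of the small heat shock genes was not tested.

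The 3 remaining lists cover slower stress responses. Of 16 genes of the unfolded protein and integrated stress response 14 were tested, and between the lineages averaged over stages 5 were called (35.7%, against 7.34% of all genes): 4 were higher in Isl1Cre, led by Xbp1 (0.47 ± 0.13), Calr (0.36 ± 0.10) and Pdia4 (0.34 ± 0.08), while Dnajb9 was lower (-0.54 ± 0.16). Of 15 oxidative and metal stress genes 13 were tested and 1 was called (7.69%): Nqo1, a quinone reductase, was higher (1.16 ± 0.32). Of 12 p53 targets 10 were tested and 1 was called (10%): Cdkn1a, the cell cycle inhibitor p21, was lower in Isl1Cre (-1.74 ± 0.33, limma adjusted p = 0.00367). Any group difference was called for 64.3%, 61.5% and 30% of these lists, against 38% of all genes.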

How the data were processed

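Single cells were sequenced by a modified Smart-seq2 with a cell barcode and a molecular barcode in the primer, capturing 3′ ends, per the labels' protocols. CASAVA 1.8, TopHat2 2.0.12, HTSeq and mm10 are named in the submitters' processing notes. The deposited values are CPM, computed by the authors for each gene in each cell; whether reads or molecules were counted is not stated. Low values were whole multiples of 1 count in every library (100% within 0.1 of a step), so counts and depths could be recovered.

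Cells with at least 2000 counts and 1000 genes were kept, which dropped 68. No doublet caller was run, as cells were picked singly. Mean CPM per library was scaled by TMM and tested as log2(CPM + 1) with limma 3.58.1 in R 4.3.3 (trended empirical Bayes, 8 group means, 7 residual degrees of freedom), over 10665 genes with at least 5 CPM in at least 2 libraries. P-values were adjusted over all of them by Benjamini-Hochberg, with a threshold of 0.05. P-values measure the spread between libraries only. On simulated data limma recovered 89% of 100 genes changed by 1 on the log2 scale between lineages at all stages, among 10291 genes tested. It also called 15 unchanged genes. Only the lineage difference averaged over stages was scored, so recovery at single stages or for slopes is not known.

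Cells were clustered with leidenalg 0.10.2 at resolution 1.0 and named from markers in a fixed list by a rule chosen after the clusters were seen; clusters 3, 5 and 10, which that rule made progenitor-like, are given by number, since genes of another class led cluster 3. The genes of the set and the lists were chosen with earlier results of these data known. All 10 genes are named; from the lists, called genes with the largest changes (up to 3 per direction, average log2 level of at least 5 where any reached it) were eligible to be named, along with the 5 most correlated genes. Alternatives were edgeR 4.0.16 and DESeq2 1.42.0 on recovered counts, other pseudocounts, scalings and cell filters, thinning to 5000 counts, and leaving out libraries and stages.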

Additional observations from a re-analysis of the deposited data

Results flagged for a closer look

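The lineage difference of Fos was not the same at all stages (limma, adjusted p = 0.00356). On the log2 scale (Isl1Cre minus Nkx2-5Cre, ± SE), Fos differed by 0.26 ± 0.24 in E7.75 hearts, by -1.49 ± 0.24 in E8.25 hearts, by 0.61 ± 0.24 in E8.75 hearts and by 0.18 ± 0.29 in E9.25 hearts. Among all genes tested 4.9% passed the same test. Each group probably holds 1 embryo, so stage and embryo cannot be told apart.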

How the results depend on the processing

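Fos at E8.25 was called in 25 of 25 alternatives, with log2 differences of -2.02 to -1.35. Ier2 averaged over stages was called in 25 of 31 (-0.87 to -0.27), at E7.75 in 14 of 25 (-1.58 to -0.37) and at E9.25 in 17 of 23 (-1.62 to -0.93). With stage, Ier2 in Isl1Cre was called in 22 of 25 alternatives, and Dusp1 in 19 of 25 in Isl1Cre and 21 of 25 in Nkx2-5Cre.

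Shares of all genes called under the same setting follow each count in parentheses. Of the 8 tested genes 1 was called averaged over stages (7.34%). The count was 0 without the libraries of E7.75 (2.51%) or of E9.25 (7.97%), in cardiomyocyte-like cells (1.03%) and with each group's libraries pooled into 1, where 1 of 10665 genes was called at all, and 2 without those of E8.75 (7.05%). At E7.75 (7.13%) the count of 1 became 0 without a filter on low values (2.6%), with edgeR (5.79%), DESeq2 (9.43%), all cells (5.05%) and thinned cells (2.75%), and 4 with means of log2 values over cells (38.4%). At E8.25 (5.09%) it became 2, Fos and Dusp1, with edgeR (5.68%) and DESeq2 (9.01%). At E9.25 (0.975%) it became 0 without the filter (1.3%), with edgeR (0.319%), all cells (0.544%) and thinned cells (0.308%). For slopes in Isl1Cre (23.2%) the count of 2 became 1 without the filter (13.4%), with all cells (19.4%) and with thinned cells (10.8%). For slopes in Nkx2-5Cre (24.8%) the count of 1 became 0 without the filter (12.3%), 2 with DESeq2 (28.6%) and 5 with means of log2 values (41.5%); with thinned cells it stayed 1 but was Fos in place of Dusp1 (9.22%). For any group difference (38%) the count of 3 became 7 with means of log2 values (64%), and 2, without Dusp1, without the filter (17.4%) and with thinned cells (15.6%). Why these counts moved was not tested.

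Leaving out 1 library at a time gave 0 to 1 calls averaged over stages, 0 to 1 at E7.75, 1 to 2 at E8.25, 0 to 0 at E8.75, 0 to 1 at E9.25, 0 to 2 for slopes in each lineage, 3 to 4 for any group and 0 to 0 in cardiomyocyte-like cells. The Junb slope in Nkx2-5Cre, not called, was -0.07 per day, and -0.197 to 0.0357 per day with 1 Nkx2-5Cre library of E9.25 left out.

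Replicates of the same number deviated together little: over 21 pairs of groups the correlation was -0.0315 to 0.166, and 1 pair passed 0.1. The numbers were taken as names only. With replicate number as a block, which leaves out the unnumbered Isl1Cre E9.25 library, 0 of the 8 genes were called averaged over stages (9.14% of all genes) and 0 for slopes in Isl1Cre (27.2%), as without that library. Gaps of at least 1 between libraries of a group numbered 9 (9.06% of all genes), and 16 with thinned cells (24.97%). The median correlation across cells was 0.158, and 0.0375 with thinned cells; these thinned values were chosen after seeing the data, as were the leave-one-out fits in cardiomyocyte-like cells and the limit of 5 endothelial-like cells.

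The HSP70 pair, with 411 Hspa1a counts and 156 Hspa1b counts in all, was below the filter in library means over all cells, and a lineage difference at E9.25 rests on 1 Isl1Cre library.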
